A study of Rattus norvegicus with 8 samples.

Results

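Hemoglobin and red cell genes were followed in the colon of rats fed the study's diets. The group holds 8 genes: the beta chains Hbb and Hbb-bs, the alpha chains Hba-a2 and Hba-a3, the heme enzyme Alas2, the membrane proteins Slc4a1 and Epb42, and the globin chaperone Ahsp. They were listed by name, with earlier results of these data known. Probes were assigned to genes through the transcript accessions of the array design and the current RefSeq rat gene table. Of the 8 genes, 7 had a probe and 6 were bright enough to be tested, among 19899 tested genes of 26913 on the array. No probe was matched to Hba-a2, and the Epb42 probe was above background in 0 of 16 rats.

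The rats were female Wistar animals, labelled as 6 weeks old. Groups of 4 received a reference diet (REF), a diet with cocoa (C10), a diet with cocoa fiber (CF) or a diet with inulin (I), a soluble fiber that is not from cocoa. According to the study's methods, C10 supplied cocoa polyphenols and cocoa fiber, CF the same cocoa fiber with very little polyphenol, and I the soluble fiber amount of C10 as inulin. RNA came from a whole piece of the middle colon, so a lower number of cells of a type and less RNA per cell cannot be told apart. Each of 8 arrays compared a rat labelled with Cy5 with a rat labelled with Cy3, the labels number 16 different rats with 1 array each, and each diet had 2 rats per dye. According to the study's methods, dyes were also swapped on each amplified sample. If arrays of the same diet pair held the same RNA, against the numbers in the labels, n would be under 4 and the p-values too small.

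Red cells carry oxygen on hemoglobin, a tetramer of alpha and beta globin chains that each hold a heme. Mature mammalian red cells lack a nucleus, while reticulocytes, the youngest red cells in blood, still hold globin mRNA together with the last transcripts of the erythroid program. Alas2 catalyzes the rate-limiting step of heme synthesis in erythroid cells, Ahsp stabilizes free alpha chains, Slc4a1 is the anion exchanger band 3 and Epb42 links band 3 to the membrane skeleton.

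The globin genes lie in clusters. In the RefSeq gene order, Hbb-bs, Hbb-b1 and Hbb are close neighbours in the beta cluster on chromosome 1, and Hba-a3, Hba-a2 and Hba-a1 in the alpha cluster on chromosome 10. RefSeq (build GRCr8) gives promoter windows for 6 of the 8 genes. The 150 bases before the start of the globin genes and Alas2 are shown, because these members share erythroid expression and the globin and Alas2 signals are compared throughout; capitals mark AGATAA and TGATAA (bound by GATA factors), CACCC (bound by Klf1 and its relatives), CCAAT and TATAAA, searched on both strands.
Hbb (chr1:167663722-167663871, minus strand): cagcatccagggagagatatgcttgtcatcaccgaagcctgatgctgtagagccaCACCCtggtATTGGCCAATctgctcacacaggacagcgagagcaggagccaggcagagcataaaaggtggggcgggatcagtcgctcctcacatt
Hbb-bs (chr1:167631631-167631780, minus strand): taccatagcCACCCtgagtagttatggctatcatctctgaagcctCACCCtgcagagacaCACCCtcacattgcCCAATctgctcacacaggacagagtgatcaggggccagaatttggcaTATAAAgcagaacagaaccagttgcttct
Hba-a2 (chr10:15829139-15829288, minus strand): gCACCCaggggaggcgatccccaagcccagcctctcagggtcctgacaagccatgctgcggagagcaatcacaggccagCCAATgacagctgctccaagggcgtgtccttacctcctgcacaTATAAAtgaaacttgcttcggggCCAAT
Hba-a3 (chr10:15816944-15817093, minus strand): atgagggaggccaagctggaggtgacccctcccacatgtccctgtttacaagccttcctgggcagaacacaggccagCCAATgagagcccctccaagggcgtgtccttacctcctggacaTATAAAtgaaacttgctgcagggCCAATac
Alas2 (chrX:22895300-22895449, plus strand): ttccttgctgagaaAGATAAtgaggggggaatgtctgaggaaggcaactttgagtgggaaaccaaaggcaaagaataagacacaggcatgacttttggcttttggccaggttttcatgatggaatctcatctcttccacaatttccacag

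Counted over the 250 bases before the start, CCAAT was matched in all 4 globin promoters and TATAAA in 3 of them, Hbb-bs, Hba-a2 and Hba-a3. Of all 33469 rat promoter windows, 34.0% held CCAAT and 12.9% held TATAAA. The word CACCC was matched 3 times in Hbb-bs, 1 time in Hbb and 1 time in Hba-a2, against 49.2% of all windows with at least 1 match. In Hbb a CCAAT on the reverse strand, 86 bases before the start, lies directly before the forward CCAAT at 81, and no base belongs to both. TGATAA was matched 1 time, in Hba-a2, and AGATAA 1 time, in Alas2, against 7.97% and 10.3% of all windows. Epb42 held none of these words, and these matches describe letters only.

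The arrays shared 1 slide, and 68.6 to 83.9% of spots per rat were well above background. Signals are normalized log2 intensities, and the lowest value well above background was 5.82 to 6.21 depending on the rat. Before the results, the labelled tissue was checked. Of 12 colon genes, 10 were tested and were above background in 16 of 16 rats, among them the epithelial genes Cdx2, Vil1 and Krt20 and the smooth muscle genes Des and Actg2. The mean log2 level of these 10 genes was 13.77 to 14.53 in the REF rats and 13.53 to 14.57 in the C10 rats.

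Hbb, the adult beta chain, gave a log2 signal of 13.24, 12.91, 13.22 and 12.89 in REF rats 1 to 4. In C10 rats 1 to 4 it was 13.44, 13.80, 13.67 and 14.51. In the CF rats it was 14.51, 14.18, 13.68 and 13.73, and in the I rats 13.67, 13.57, 13.51 and 13.99. All 12 rats on cocoa, cocoa fiber or inulin were thus above all 4 REF rats, a pattern met by 0.0603% of all tested genes and by no other member. The diets ranked CF (14.03 ± 0.39, mean ± SD, n = 4), C10 (13.86 ± 0.46), I (13.69 ± 0.21) and REF (13.07 ± 0.19). The 3 upper diets overlapped each other.

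A dimmer Hbb probe gave log2 signals of 8.75 to 9.34 in REF, 9.44 to 10.47 in C10, 9.48 to 10.33 in CF and 9.48 to 9.70 in I. It separated the same groups: every rat on the 3 diets lay above every REF rat. C10 rat 4 and CF rat 1 had the highest values with both probes.

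Hbb-bs, a second adult beta chain, had the widest range of the members, 10.99 to 13.20. The REF rats gave log2 signals of 12.03, 11.38, 11.85 and 10.99, and the C10 rats 12.34, 12.75, 12.56 and 13.04. The CF rats gave 13.20, 12.68, 12.25 and 12.15, and the I rats 12.12, 12.17, 11.90 and 12.24. The C10 and CF rats all lay above REF, while I rat 3, at 11.90, fell below REF rat 1. The diets ranked C10 (12.67 ± 0.30), CF (12.57 ± 0.48), I (12.11 ± 0.15) and REF (11.56 ± 0.47), with overlap between each pair of neighbours. Within REF, the Cy3 rats 1 and 3 were above the Cy5 rats 2 and 4, and the fitted Cy5 minus Cy3 difference of Hbb-bs over all rats was -0.17.

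Hba-a3, the alpha chain with a probe, was dim and had 1 spot per array. Its signal was above background in 13 of 16 rats. The log2 signals were 7.0, 6.55, 6.58 and 6.43 in REF, 7.58, 7.21, 6.81 and 8.0 in C10, 7.25, 7.01, 6.15 and 7.50 in CF and 6.77, 6.50, 6.98 and 7.13 in I. Every diet overlapped REF, and CF rat 3 had the lowest value of all rats. The order was C10 (7.40 ± 0.51), CF (6.98 ± 0.59), I (6.84 ± 0.27) and REF (6.64 ± 0.25), and no neighbours in it were separated.

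Alas2 gave 7.78, 7.55, 7.34 and 7.46 in the REF rats and 8.10, 8.24, 8.22 and 8.78 in the C10 rats, in log2 units. The CF rats gave 8.99, 8.36, 7.71 and 8.11, and the I rats 7.98, 7.82, 7.84 and 7.97. All C10 and all I rats lay above REF, and CF rat 3 was the single treated rat inside the REF range. The diets ranked C10 (8.34 ± 0.30), CF (8.29 ± 0.54), I (7.90 ± 0.08) and REF (7.53 ± 0.19). C10 overlapped CF and CF overlapped I, whereas I did not overlap REF.

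Slc4a1 lay close to background in every rat. Its log2 signal was 6.63, 6.32, 6.35 and 6.32 in REF, 6.83, 6.83, 6.74 and 6.84 in C10, 6.79, 6.62, 6.40 and 6.39 in CF and 6.33, 6.45, 6.38 and 6.52 in I. The C10 rats lay above all REF and all I rats, with CF rat 1 among them. The diets ranked C10 (6.81 ± 0.05), CF (6.55 ± 0.19), I (6.42 ± 0.08) and REF (6.40 ± 0.15), with overlap between neighbours.

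Ahsp, which binds free alpha globin, did not follow this order. Its log2 signals were 7.96, 8.40, 7.49 and 8.09 in REF, 7.65, 7.69, 7.93 and 8.63 in C10, 8.27, 7.93, 7.60 and 7.87 in CF and 8.08, 7.99, 7.34 and 7.93 in I. The groups overlapped fully, with means of 7.98 ± 0.38 in REF and 7.98 ± 0.45 in C10. A further Ahsp probe, at 7.15 to 8.0, also overlapped between all diets. Epb42 stayed at 5.86 to 6.08, not well above background in any rat, so no difference could be measured.

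**Figure D1:**
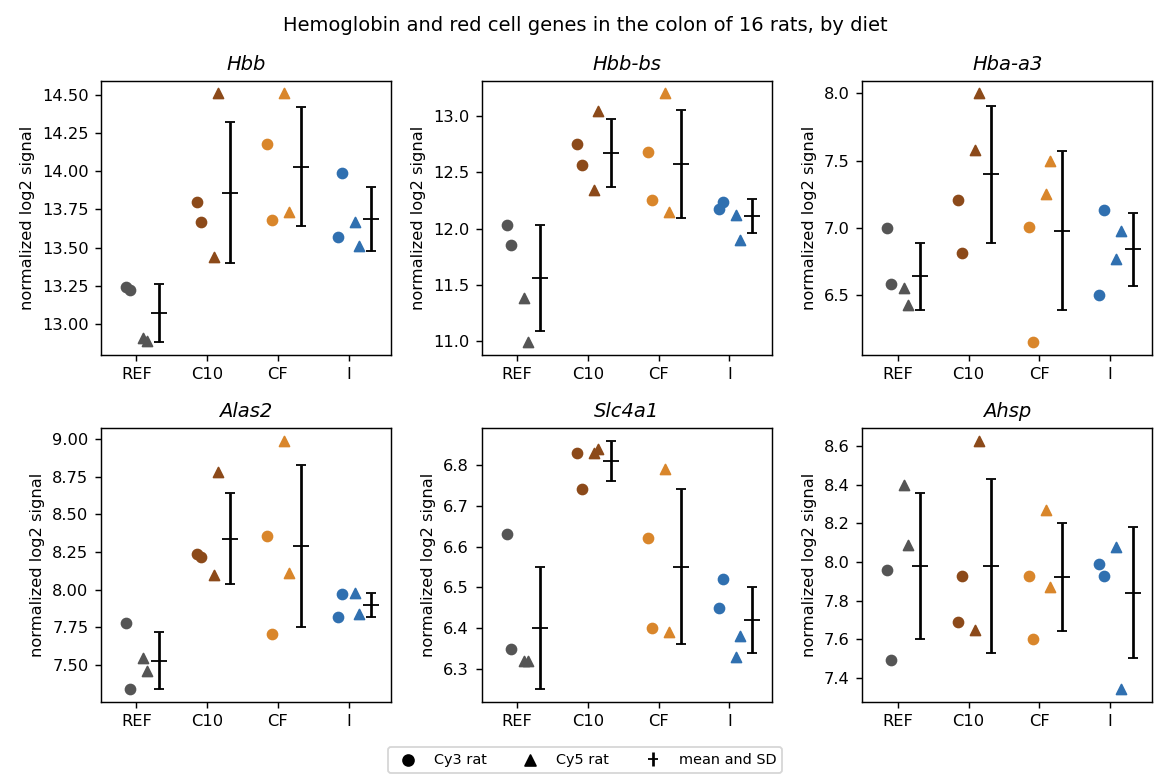
Normalized log2 signal of the 6 tested members in each of 16 rats by diet; circles are Cy3 rats, triangles Cy5 rats, and bars give the mean and SD of 4 rats (axes do not start at 0). Hbb is above the REF range in all 12 rats on the other diets, whereas Ahsp overlaps between all diets.

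The first question of the design was what cocoa changed against the reference diet. With C10, no member passed the test (limma over all genes, Benjamini-Hochberg adjusted p under 0.05), which 0.945% of all genes did. The fitted differences of C10 from REF were 0.97 for Hbb-bs (SE 0.23, adjusted p = 0.0658), 0.74 for Hba-a3 (SE 0.23, adjusted p = 0.136), 0.68 for Hbb (SE 0.21, adjusted p = 0.124) and 0.66 for Alas2 (SE 0.19, adjusted p = 0.0985), in log2 units. For Hbb-bs this is a 1.96-fold higher signal, with a 95% interval of 1.38 to 2.77. Slc4a1 came nearest to the threshold, with a small difference of 0.37 (SE 0.08, adjusted p = 0.0522), and Ahsp had -0.20 (SE 0.19, adjusted p = 0.655). The fit keeps rats of an array together, so its differences are not exactly those of the means above.

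Before adjustment, 5 of the 6 tested members were higher in C10 at p under 0.05, and 8.79% of all genes were. All 4 C10 rats lay above all 4 REF rats for Hbb, Hbb-bs, Alas2 and Slc4a1, 4 of 6 members, which held for 2.60% of all genes. Such full separation always gives p = 0.0286 in the exact two-sided permutation test, the smallest that 4 rats against 4 allow. The test, which shuffles rats without regard to arrays, thus adds nothing to the separation. The median difference was 0.67 over the 6 members and 0.01 over all genes. The members were chosen with earlier results of these data known, and globin probes may read the same transcripts. Counts of members beside shares of all genes are therefore a description only, here and for the other diets.

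Single rats decided which members were called. Without CF rat 1, whose globin signals were high, Slc4a1 (adjusted p = 0.0177), Hbb-bs (adjusted p = 0.0151) and Alas2 (adjusted p = 0.0348) passed for C10 against REF. Without C10 rat 3, Hbb-bs and Slc4a1 passed, without REF rat 1 Slc4a1 passed, and without REF rat 3 Hbb-bs passed. Of all genes, 188 were called with every rat kept, 134 without CF rat 1, 221 without C10 rat 3, 103 without REF rat 1 and 676 without REF rat 3. Slc4a1 also passed in 4 other settings. Its difference was 0.80 (adjusted p = 0.0418) with no offset added to the corrected intensities, 0.35 (adjusted p = 0.0445) without normalization between arrays and 0.40 (adjusted p = 0.0381) with quantile normalization. From the scanner software's processed intensities, which were also quantile normalized, it was 1.32 (adjusted p = 0.016). Hba-a3, the other dim member, had 1.28 (adjusted p = 0.225) with no offset and 1.54 (adjusted p = 0.395) from the processed intensities, where Alas2 reached 1.0 (adjusted p = 0.0881).

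Cocoa fiber alone gave a second comparison. Against REF, CF differed by 0.94 for Hbb-bs (SE 0.25), 0.89 for Hbb (SE 0.23) and 0.69 for Alas2 (SE 0.20), each with adjusted p = 0.685 in limma. No member was called, and 0% of all genes were. Before adjustment, 3 of the 6 members were higher at p under 0.05, against 3.17% of all genes. All 4 CF rats were above all 4 REF rats for Hbb and Hbb-bs, 2 of 6 members, against 1.14% of all genes. Hba-a3 had 0.42 (adjusted p = 0.84), Slc4a1 0.17 (adjusted p = 0.818) and Ahsp -0.28 (adjusted p = 0.888).

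Inulin was the third diet compared with REF. I differed from REF by 0.65 for Hbb (SE 0.21, adjusted p = 0.806), 0.62 for Hbb-bs (SE 0.23, adjusted p = 0.83) and 0.44 for Alas2 (SE 0.19, adjusted p = 0.867) in limma. No member passed, and 0% of all genes did. These 3 members were higher at p under 0.05 before adjustment, where 2.97% of all genes were, and Hbb and Alas2 were separated from REF, as were 1.14% of all genes. Hba-a3 had 0.31, Slc4a1 0.07 and Ahsp -0.18. The 3 comparisons use the same 4 REF rats, so they are not independent of each other.

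**Figure D2:**
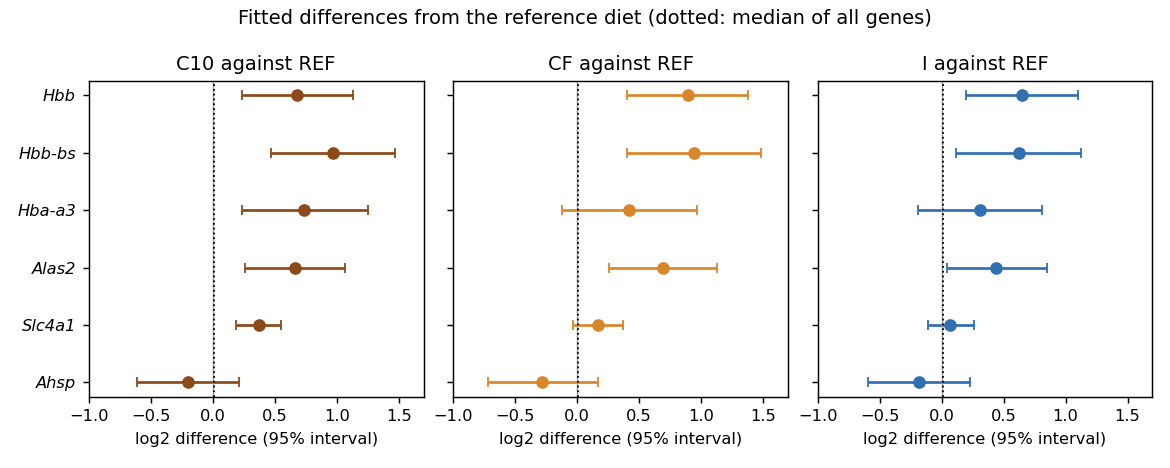
Fitted log2 differences of C10, CF and I from REF for the 6 tested members, with 95% intervals before adjustment, 0 as a solid line and the median of all genes as a dotted line. Hbb-bs, Hbb and Alas2 have intervals above 0 in all 3 comparisons, and none passes after adjustment over all genes.

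The 3 diets other than REF were also compared with each other. For C10 against CF, no member was called, whereas 0.432% of all genes were. Slc4a1 was higher by 0.20 (SE 0.08, adjusted p = 0.317), the 1 member at p under 0.05 before adjustment, which 6.11% of all genes met. In this comparison 0 of 6 members had all 4 C10 rats above all 4 CF rats, against 1.61% of genes. The Hbb-bs difference was 0.03, with a 95% interval of -0.47 to 0.53.

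For C10 against I, no member was called, and 0.548% of all genes were. Slc4a1 was higher by 0.30 (SE 0.09, adjusted p = 0.191), again the 1 member at p under 0.05 before adjustment, against 6.21% of all genes. Alas2, Hbb-bs and Slc4a1 had all C10 rats above all I rats, 3 of 6 members against 3.35% of genes. The fitted differences of Alas2 and Hbb-bs were 0.22 and 0.35, with 95% intervals of -0.22 to 0.65 and -0.19 to 0.89. The Alas2 difference was -0.08 with log-ratios within arrays and -0.08 with arrays 1 to 4 against 5 to 8 as a term. For CF against I, 0 members and 0% of genes were called, 0 members and 1.68% of genes were higher at p under 0.05 before adjustment, and 0 members and 0.623% of genes were separated. The largest of these differences was 0.32 for Hbb-bs, with a 95% interval of -0.18 to 0.82.

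The array number moved with diet: C10 rats were on arrays 1 to 4, I rats on arrays 5 to 8, and REF and CF rats in both sets of arrays. Within arrays 1 to 4, C10 exceeded REF by 0.78 for Hbb, 0.97 for Hbb-bs and 0.67 for Alas2, with 4 and 2 rats that did not overlap. Within arrays 5 to 8, I exceeded REF by 0.63 for Hbb, 0.69 for Hbb-bs and 0.50 for Alas2, again without overlap. Except for Hbb-bs in I, this lack of overlap follows from the full separation of the diets given above. The share of all genes without overlap in these sets of arrays was not counted. CF rats 1 and 2, on arrays 3 and 4, were above CF rats 3 and 4, on arrays 5 and 6, for Hbb, Hbb-bs, Alas2 and Slc4a1. Hence CF exceeded REF by 1.27 for Hbb within arrays 1 to 4 and by 0.65 within arrays 5 to 8, and by 1.24 and 0.78 for Hbb-bs. With arrays 1 to 4 against 5 to 8 as a term in the fit, the C10 difference of Hbb-bs was 0.82 (adjusted p = 0.109) and that of Alas2 0.51 (adjusted p = 0.151). C10 and I never shared a set of arrays, and there the set and the diet cannot be told apart except through REF and CF.

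Some arrays carried a REF rat beside a C10 or I rat. For Hbb and Alas2, all C10 and all I rats lay above all REF rats, as given above. The direction on these arrays was therefore fixed for both genes and adds nothing to that separation. The share of all genes with the same direction on all of these arrays was not counted. On arrays 1, 2, 7 and 8, the REF rat was lower than its partner for Hbb, by 0.20, 0.89, 0.29 and 1.10. For Alas2 the REF rat was lower on the same 4 arrays, by 0.33, 0.69, 0.50 and 0.51. For Hbb-bs the gaps were 0.31, 1.37, 0.05 and 1.25. Ahsp ran the other way on each of these arrays, the REF rat being higher by 0.31, 0.71, 0.15 and 0.16.

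Whether globins and red cell genes moved together was read over the 16 rats, after centring each dye. Alas2 followed Hbb-bs with Pearson's r = 0.96 and Spearman's rho = 0.93 (permutation p = 1e-05 for both, the smallest the resampling can give, adjusted p = 2.5e-05 and 5e-05 over 5 genes). Hbb followed it with r = 0.92 and rho = 0.86 (permutation p = 1e-05 and 9e-05, adjusted p = 2.5e-05 and 0.000225). Slc4a1 had r = 0.79 and rho = 0.79 (permutation p = 6e-05 and 0.00037, adjusted p = 0.0001 and 0.000617). Hba-a3 had r = 0.71 and rho = 0.66 (permutation p = 0.00219 and 0.00661, adjusted p = 0.00274 and 0.00826). Ahsp had r = 0.25 and rho = 0.17 (permutation p = 0.357 and 0.53, both also after adjustment). These permutations shuffled rats without regard to their pairing on arrays, so the p-values may be too small.

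These relations did not rest on the extreme rats. Without CF rat 1 and REF rat 4, the farthest from the median of Hbb-bs, r was 0.95 for Alas2, 0.87 for Hbb, 0.79 for Slc4a1, 0.74 for Hba-a3 and 0.26 for Ahsp. After centring within diet as well, r was 0.89 for Alas2, 0.87 for Hbb, 0.78 for Slc4a1, 0.56 for Hba-a3 and 0.46 for Ahsp, so rats on the same diet also differed along this axis. Within arrays 1 to 4, r was 0.99 for Alas2, 0.95 for Hbb, 0.83 for Slc4a1 and 0.70 for Hba-a3, of which the last did not pass (exact permutation, adjusted p = 0.0779). Within arrays 5 to 8 the values were 0.87, 0.91, 0.45 and 0.54, of which the last pair did not pass (exact permutation, adjusted p = 0.335 and 0.279). Over the 8 differences between the rats of an array, r was 0.98 for Alas2, 0.98 for Hbb, 0.88 for Slc4a1, 0.87 for Hba-a3 and -0.27 for Ahsp.

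Globin genes are near copies of each other, and their probes may read each other's transcripts, so their transcripts cannot be told apart with certainty. Alas2 and Slc4a1 are no globins and were measured by probes of their own. Alas2 and Slc4a1 correlated with r = 0.81. Ahsp correlated with Alas2 at r = 0.39 over all rats and 0.64 within diets.

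**Figure D3:**
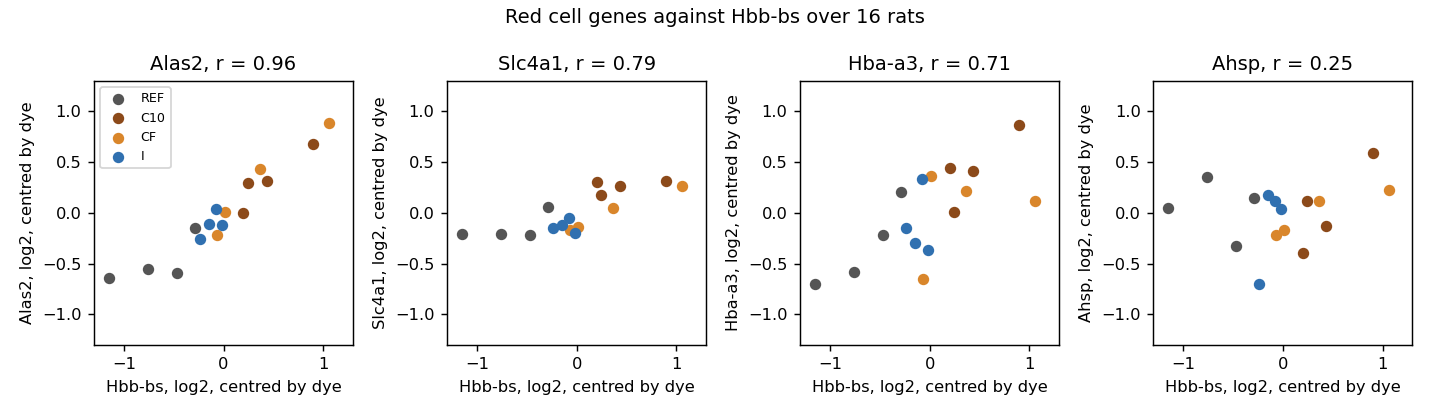
Log2 signal of Alas2, Slc4a1, Hba-a3 and Ahsp against that of Hbb-bs in 16 rats, each centred within its dye, with 1 point per rat coloured by diet. Alas2 rises along Hbb-bs from the REF rats to C10 rat 4 and CF rat 1 (r = 0.96), and Ahsp shows no such order (r = 0.25).

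The other globins were read as a list of 11 genes, 9 with a probe and 7 tested. Before adjustment, 8.79% of all genes were higher at p under 0.05 in C10, 3.17% in CF and 2.97% in I. Of the 7, Hba-a1, Hbb-b1 and Hbe2, the last an epsilon chain by name, each met this with all 3 diets, and 0 passed after adjustment. Their differences from REF were 0.64, 0.68 and 0.70 in C10 (adjusted p = 0.158, 0.122 and 0.11), 0.86, 0.87 and 0.82 in CF and 0.52, 0.60 and 0.58 in I. Hba-a1 gave log2 signals of 14.28 to 14.69 in REF and 14.97 to 15.75 in C10. It gave 14.78 to 16.07 in CF and 14.78 to 15.30 in I, so all 12 rats lay above REF for this gene as well. The globins of other tissues gave other patterns: myoglobin (Mb) lay between 7.44 and 7.79 in all rats, and cytoglobin (Cygb) and neuroglobin (Ngb) correlated with the mean of Hbb, Hbb-bs and Hba-a3 at r = -0.13 and -0.07. Hbe1 and Hbz, further embryonic chains, were above background in 0 and 1 of 16 rats.

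Among all 19899 genes, the mean of Hbb, Hbb-bs and Hba-a3 over 16 rats was matched best, outside its own members, by Hbe2 (r = 0.96), Hbb-b1 (r = 0.95) and Alas2 (r = 0.95). Alas2 thus ranked 4 of all genes, Hba-a1 ranked 6 (r = 0.89), Slc4a1 30 and Ahsp 4714 (r = 0.27). In all, 21 genes reached r of 0.8, the 3 averaged genes among them, and 5 reached 0.9, of which 2 were Hbb-bs and Hbb. Besides globins and members, the 10 named genes most alike were Prmt9 (0.88), Stk11ip (0.87), Lratd1 (0.86), Prdx5 (0.85), Fads2, Slc7a13 and Vegfc (0.84 each), and Ints13, Mfhas1 and Syt12 (0.81 each). They were the highest of many genes over 16 rats. Prdx5, a mitochondrial and peroxisomal peroxiredoxin, differed from REF by 0.42 in C10, 0.28 in CF and 0.09 in I, and Fads2, a fatty acid desaturase, by 0.37, 0.30 and 0.14. None of the 10 passed in limma, and the lowest adjusted p was 0.053, for Lratd1 in C10.

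The genes that build heme had list medians near 0. All 11 of the heme synthesis list other than Alas2 were tested, 0 passed for any diet against REF, and their median difference was -0.02 in C10, -0.03 in CF and -0.04 in I. Alas1, the housekeeping partner of Alas2, had 0.07 in C10, -0.40 in CF and -0.45 in I. Abcb10, a transporter needed for hemoglobin in erythroid cells, had 0.33 in C10 (adjusted p = 0.25), and Fech, which inserts iron into heme, had 0.17.

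The list medians of other red cell genes were also near 0. Of 17 membrane genes 9 were tested, with a median of -0.09 in C10, -0.03 in CF and -0.02 in I, and 0 passed. Sptb, a spectrin chain, had 0.06 in C10 and was above background in 4 rats, and Rhag, a red cell membrane glycoprotein, was above background in 0. Of 20 genes of red cell enzymes and maturation 14 were tested, with medians of -0.10, -0.02 and 0.00, and 0 passed. Of these, 5 were lower in C10 at p under 0.05 before adjustment, as were 8.33% of all genes: Car2 (-1.38), Pklr (-0.53), Bpgm (-0.19), Blvrb (-0.15) and Prdx2 (-0.13). Car2, a carbonic anhydrase, is abundant in colon epithelium as well.

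Of 11 erythroid regulators 9 were tested, with medians of 0.05 in C10, 0.08 in CF and 0.09 in I, and 0 passed. Gata1, the master factor of erythroid cells, was above background in 3 of 16 rats and Gfi1b in 1. Klf1, the activator of the adult beta chain, was above background in 13 and differed by 0.05 in C10. Bcl11a, Epor, Gata2, Ldb1, Lmo2, Tal1 and Zfpm1 were above background in 16 of 16 rats. Epor, the erythropoietin receptor, and Gata2, a factor of blood progenitors, were 2 of 9 lower in C10 at p under 0.05 before adjustment, as were 8.33% of all genes. Epor differed from REF by -0.25 in C10 (adjusted p = 0.275) and 0.26 in CF (adjusted p = 0.779), and Gata2 by -0.22 in C10 (adjusted p = 0.156). Between C10 and CF the Epor difference was -0.50 (adjusted p = 0.0614). Hemgn, Trim10 and Tfr2, markers of erythroid precursors, were above background in 1, 0 and 1 rats. The scavenging of hemoglobin and heme was covered by 10 genes, 9 of them tested, with medians of 0.03, 0.12 and 0.08 and 0 past the test. Hmox1, which degrades heme, differed from REF by 0.24 in C10 and 0.42 in I (adjusted p = 0.456 and 0.83), and Hp, which binds free hemoglobin, by -0.18 in C10 (adjusted p = 0.18).

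Cells that travel in or line vessels were compared beside the globins. Of 10 endothelial genes 8 were tested, with medians of 0.01 in C10, 0.06 in CF and 0.02 in I, and their mean level was 8.51 to 8.72 in REF and 8.5 to 8.75 in C10. Of 10 platelet genes 5 were tested, with medians of -0.09, -0.05 and 0.00, and Ppbp and Gp1ba were above background in 0 rats. Of 10 neutrophil genes 4 were tested, with medians of 0.01, -0.01 and 0.04, and Elane, Ltf, Ngp and Cxcr2 were above background in 0 rats. None of these genes passed against REF. The 10 colon genes had medians of -0.10, 0.00 and -0.01, none passed, and the smooth muscle genes Actg2 and Des differed by -1.17 and -0.93 in C10 (adjusted p = 0.177 and 0.189). Of 6 genes of other cells of the piece 4 were tested, with medians of -0.58 in C10, 0.19 in CF and 0.44 in I. Mcpt8, a mast cell protease by name, fell by 1.71 in C10 (adjusted p = 0.0111), and the fat cell gene Adipoq had -1.71 (adjusted p = 0.19). Hoxb13, a gene of the distal gut, had 2.77 in C10, 1.73 in CF and 1.08 in I (adjusted p = 0.319, 0.903 and 0.959), with log2 levels of 6.60 to 14.01 in REF and 13.40 to 14.88 in C10. The part of these cells, or of the place along the colon, in the globin differences was not tested.

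**Figure D4:**
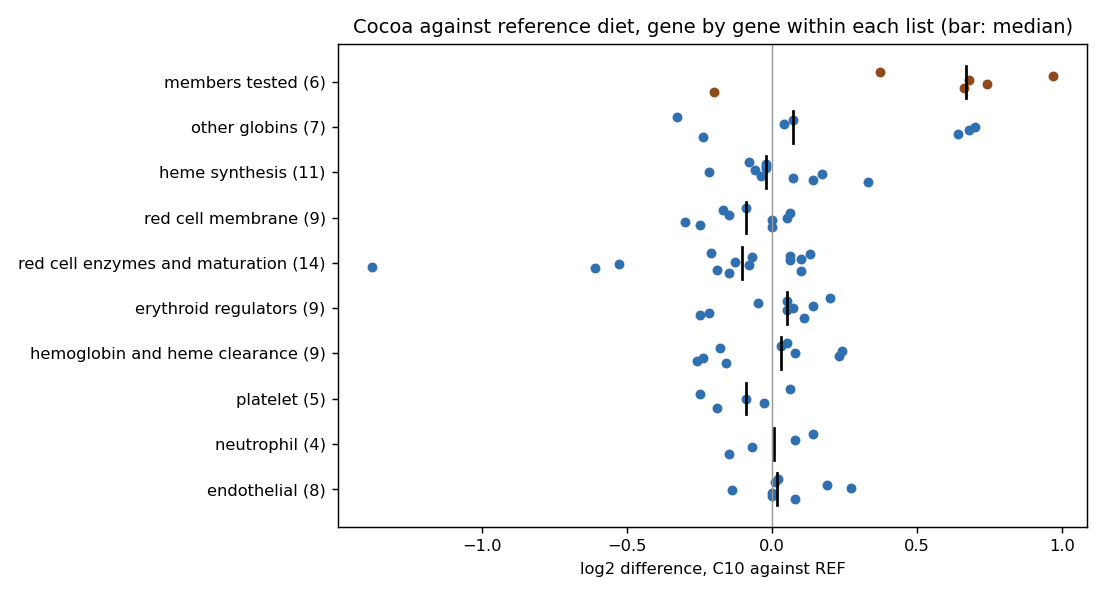
Fitted log2 difference of C10 from REF for each tested gene of the members and of 9 lists, with 1 point per gene, the number of genes in brackets and a bar at the median. The members have a median of 0.67, whereas the medians of the 9 lists lie between -0.10 and 0.07, with 3 globins above 0.6. The colon genes (median -0.10) and the genes of other cells of the piece (median -0.58) are not drawn.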

How the data were processed

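The authors scanned 8 two-colour Agilent arrays with Feature Extraction 10.7.3.1, and the intensity of each spot was deposited by the authors without normalization between arrays; the array design names the rat build rn4. The deposited median intensities, 62976 spots per array, were background corrected (normexp, offset 50), spatially and intensity loess normalized (spans 0.4 and 0.3) and scaled between arrays (Aquantile) with limma 3.58.1 in R 4.3.3. The offset draws the differences of dim genes toward 0. Outlier and control spots were left out, and 0 spots were saturated. Spots of a probe were averaged, a probe was kept if well above background in at least 4 of 16 channels, and the brightest kept probe stood for a gene. This left 22537 probes and 19899 genes.

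Each rat was 1 sample, so n was 4 per diet and the number of rats limits the precision. Diet and dye were fitted with the array as a random block (correlation within arrays 0.421), and p-values were adjusted over all genes by the method of Benjamini and Hochberg. The study's methods name a rank product test, which permutes genes and was not used here. The authors' table of normalized values was left out: none of its 8 column names matches a sample label. Correlations used 100000 permutations, or all of them for 8 values, in Python. Scripts were tested on simulated data.

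The members and all 11 gene lists were chosen with earlier results of these data known. Named genes were the members, list genes past the test or needed to describe a list, and the 10 genes with the highest correlation to the globin mean; others, such as those near p = 0.05, were chosen after their values were seen. Promoter sequences and motif counts are from RefSeq, build GRCr8. Some genes of the lists are counted but not reported by name here.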

Additional observations from a re-analysis of the deposited data

Results flagged for a closer look

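In C10, the Slc4a1 signal of rat 3 stood apart from the other 3 rats. It was 6.74 against 6.83 to 6.84, and its gap to the nearest rat was 0.9 of the whole range of the group. The range is small, and 1 of 60 groups of 4 rats was marked in this way, where chance marks about 1 in 20.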

How the results depend on the processing

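Against REF, Hbb, Hbb-bs, Alas2, Hba-a3 and Slc4a1 kept a positive difference for C10, CF and I under all 11 other settings and with each of the 16 rats left out. For C10 the range over the other settings was 0.77 to 1.11 for Hbb-bs, 0.54 to 0.79 for Hbb and 0.47 to 1.0 for Alas2. In C10 against REF 1 member, Slc4a1, was called with normexp offset 0, with processed signals and quantile normalization together, without normalization between arrays and with quantile normalization, and 0 to 3 members with 1 rat left out. In the other 5 comparisons 0 members were called throughout. All genes called for C10 against REF numbered 188, 0 to 254 under other settings and 36 to 676 with 1 rat left out. The low end of the settings came from log-ratios within arrays.

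Some differences among the 3 diets other than REF, and some of Ahsp, changed sign, and the cause was not tested. With processed signals, Alas2 was 0.01 in C10 against CF and Ahsp 0.04 in C10 against I. Without normalization between arrays, Hbb was -0.01 in C10 against I. Without a dye term, Ahsp was 0.03 in C10 against I. Without the array block, Alas2 was 0.04 in C10 against CF, and Ahsp 0.14 in C10 against I and 0.09 in CF against I. With log-ratios within arrays, Hbb-bs was -0.07 in C10 against CF, and Hbb -0.16 and Alas2 -0.08 in C10 against I. With arrays 1 to 4 against 5 to 8 as a term, Hbb-bs was -0.12 and Ahsp -0.03 in C10 against CF, and Hbb -0.16 and Alas2 -0.08 in C10 against I. With 1 rat left out, Ahsp ranged from -0.27 to 0.05 in I against REF, -0.17 to 0.22 in C10 against CF and -0.25 to 0.09 in C10 against I. Hbb ranged from -0.53 to 0.07 and -0.25 to 0.17 in the last pair of comparisons. In C10 against CF, Hbb-bs ranged from -0.25 to 0.41 and Alas2 from -0.23 to 0.26, and Hba-a3 ranged from -0.08 to 0.39 in CF against I.

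The correlation of Hba-a3 with Hbb-bs no longer passed with processed signals (r = 0.48), within arrays 1 to 4 (r = 0.70) or within arrays 5 to 8 (r = 0.54), nor did that of Slc4a1 within arrays 5 to 8 (r = 0.45). The correlation of Ahsp, 0.25 over all rats, was 0.46 within diets, -0.11 within arrays 5 to 8 and -0.27 over differences within arrays. With 1 rat left out, r stayed at 0.94 to 0.97 for Alas2 and 0.89 to 0.94 for Hbb; these runs, and those without spatial loess, without normalization between arrays and with quantile normalization, were added after seeing the data. The replicate numbers only name rats within a diet and were not used as a block. Rats were paired by array, as a random block or, in Hbb-bs for C10 against REF, as log-ratios within arrays (0.77, adjusted p = 0.36). Slc4a1 and Hba-a3 lay near background, which limits their measured size.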
